A study of Mus musculus with 6 samples.

Results

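The GIMAP family (GTPases of immunity-associated proteins) was followed in mouse OT-I CD8 T cells of the genotypes CD73 KO and WT. The members were taken by name as Gimap1, Gimap3, Gimap4, Gimap5, Gimap6, Gimap7, Gimap8 and Gimap9. All 8 were found among the 49671 genes counted, and all 8 passed the filter on low counts. OT-I cells carry a transgenic T cell receptor for the ovalbumin peptide SIINFEKL. The targeted gene, Nt5e, encodes the ectoenzyme CD73, which turns AMP into adenosine. Both genotypes went through the same culture, in which CD8 T cells of the spleen were given the peptide daily (10 ng/mL, 5 days) beside the cytokines IL-7 and IL-15 (5 ng/mL of each), a scheme meant to bring on exhaustion, and live cells were sorted. Each genotype had 3 libraries. The labels give neither the age of the mice nor the animal or culture behind each library. P-values therefore rest on the spread among these 6 samples, which may be technical.

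GIMAP proteins are small GTPases of lymphocytes whose genes sit side by side in 1 cluster. Several are anchored in the membranes of lysosomes, the endoplasmic reticulum or other organelles, where they assemble on GTP. They are known for their part in the survival of resting T cells: rats and mice that lack functional Gimap5 lose peripheral T cells, and in mice Gimap1 is needed for mature lymphocytes to persist. Their transcripts are abundant in naive T cells.

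Library totals ran from 10202128 to 19382950 counts in CD73 KO and from 6934150 to 13039990 in WT, so that 1 count was worth 0.0532 to 0.142 CPM (the count per library total, scaled between libraries). The targeted gene was at 3.67, 8.45 and 8.47 CPM in CD73 KO, against 22.6, 5.22 and 37.4 CPM in WT. Nt5e in the library labelled WT replicate 2 (95% Poisson interval 3.86 to 6.90 CPM, counting error only) thus lay within the CD73 KO range. The CD73 KO libraries themselves held 69, 128 and 88 Nt5e counts, and whether any library is mislabelled was not tested. With a log2 fold change of -1.67 ± 0.72 (SE), Nt5e missed the threshold of edgeR's test (adjusted p = 0.534). Markers of CD8 T cells were present in every library, from 2670 to 7442 counts for Cd8b1 up to 6635 to 21636 for Trbc2. Cd4 had 0 to 5 counts. GIMAP genes are also transcribed in B cells, NK cells and endothelium, so the markers of these cells bear on where the reads come from. The 8 B cell markers summed to 2.31 to 4.10 CPM in CD73 KO, against 1.60 to 2.72 CPM in WT. Ms4a1 and Pax5 were at 0 counts in all 6 libraries, while Cd79b had 4 to 44 counts and Cd22 2 to 26. The 6 NK cell markers, which include Eomes of activated CD8 T cells, summed to 3.30 to 19.7 CPM in CD73 KO, against 3.99 to 43.7 CPM in WT. Ncr1, which defines NK cells, had 1 to 8 counts, while Klrb1c had 7 to 65 and Tyrobp 0 to 31. The 6 endothelial and stromal markers summed to 67.0 to 105.0 CPM in CD73 KO, against 47.1 to 63.7 CPM in WT, nearly all from Pecam1, while Cdh5, Kdr and Col1a2 were at 0 counts throughout. Of 8 myeloid markers 5 were at 0 counts, and the list summed to 0.638 to 0.963 CPM in CD73 KO, against 0.712 to 1.17 CPM in WT. Of 5 dendritic cell markers 3 were at 0 counts, with sums of 0.426 to 1.52 CPM in CD73 KO, against 0.426 to 1.28 CPM in WT. Of the 4 CD4 T cell markers, Zbtb7b had 173 to 425 counts and Foxp3 0 to 2. Cd40lg had 11 to 28 counts, with a log2 fold change of -0.74 ± 0.31 (SE, edgeR, adjusted p = 0.503). The list summed to 24.3 to 28.3 CPM in CD73 KO, against 28.0 to 35.5 CPM in WT.

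All 8 GIMAP genes were well detected in both genotypes, and none passed the test between them. Their levels lay slightly higher in CD73 KO, by log2 fold changes of 0.07 to 0.42 with a median of 0.16, where the median over all 12242 tested genes was 0.01. With edgeR, 0 of 8 had an adjusted p under 0.05, against 0.0572% of all tested genes (0.0408% higher and 0.0163% lower). DESeq2 and limma-voom also called 0 of 8. At an unadjusted p under 0.05 there were 2 of 8, Gimap9 and Gimap6, both higher in CD73 KO, against 9.64% of all tested genes in either direction, 5.75% on the higher and 3.89% on the lower side. The fold change was above 1 for 8 of 8 members, against 52.3% of all tested genes. When the library labelled WT replicate 2 was left out, 8 of 8 were on the higher side, with a median of 0.18. So were 6466 of all 12599 tested genes. The 2 members at an unadjusted p under 0.05 were then Gimap9 and Gimap7, where 565 of all 12599 had such a p. Gimap6 was no longer among them. The higher side held 7 of 8 without CD73 KO replicate 3 (6566 of all 12580 tested genes). It also held 7 of 8 without WT replicate 3 (6609 of all 12576). Without WT replicate 1 only Gimap9 was at that p, where 757 of all 12278 tested genes were. Neighbouring genes of 1 family need not vary independently. The summed endothelial and stromal list was also higher in CD73 KO without overlap; nearly all of it was Pecam1, which T cells also express, and its part in the GIMAP values was not tested. CD73 KO libraries were deeper on the whole, and the part of depth was not tested either.

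The family lies on chromosome 6 between 48647234 and 48770851 (mm10), a span of 124 kb, in the order Gimap8, Gimap9, Gimap4, Gimap6, Gimap7, Gimap1, Gimap5 and Gimap3. Gimap6 and Gimap3 are on the minus strand and the others on the plus strand. To show what sets the members apart before the counting, and where it could mix them, the coding sequences of GENCODE M21 were compared. They run from 876 bases (Gimap9) to 2067 bases (Gimap8, which holds several GTPase domains in 1 protein). Gimap3 and Gimap5 were 89.8% identical over the aligned bases of their coding sequences and shared a stretch of 140 bases without a mismatch, given here because reads inside it cannot be told apart; it starts at base 175 of the Gimap3 and base 187 of the Gimap5 coding sequence, counted from the start codon:
Gimap3 and Gimap5: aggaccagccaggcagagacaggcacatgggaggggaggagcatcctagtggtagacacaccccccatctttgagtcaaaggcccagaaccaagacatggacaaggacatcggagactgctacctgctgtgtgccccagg
Over the other 27 pairs of members the longest exact stretch was 9 to 17 bases. Of all 50-base windows of the annotated transcripts, 8.15% of those of Gimap3 and 6.84% of those of Gimap5 also occurred in another gene. For Gimap1 the share was 35.5% (1107 windows), of which 1011 windows occurred in Gimap1os. The exons of Gimap1os, on the opposite strand, overlap 1107 bases (36%) of those of Gimap1, and the strand setting of the counting is not known. The share was 1.39% for Gimap7, 0.17% for Gimap6 and 0 for Gimap4, Gimap8 and Gimap9. The counts of Gimap1, Gimap3 and Gimap5 are therefore less certain than the others. A read-through gene, Gm28053, joins Gimap7, Gimap1 and Gimap5 and had 16 to 99 counts per library. Its exons overlap theirs by 81, 198 and 153 bases on the same strand.

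**Figure D1:**
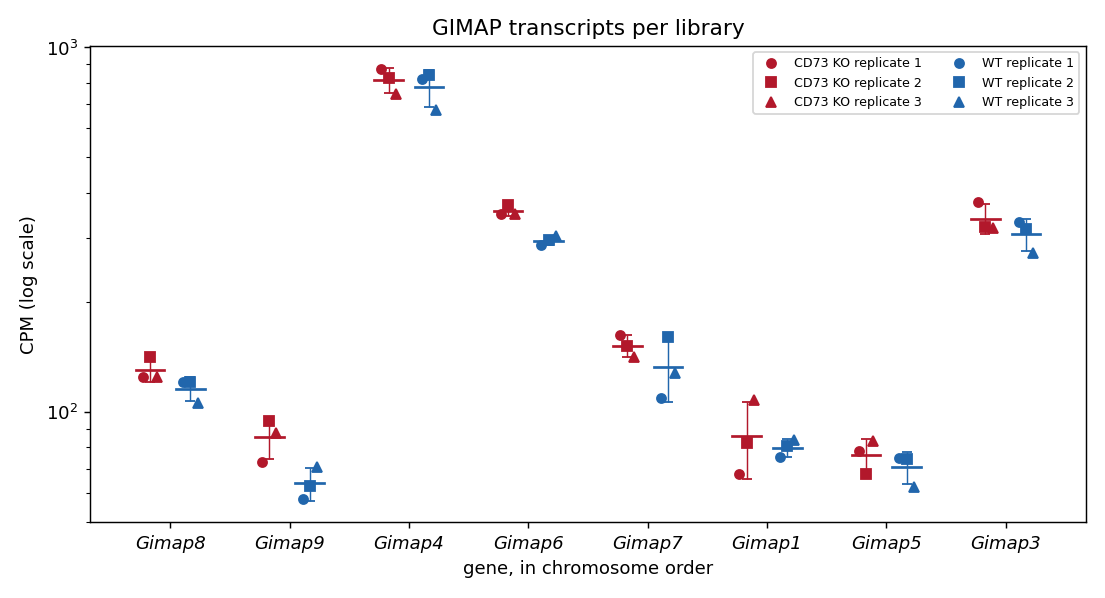
CPM (log scale) of the 8 GIMAP genes in each of the 3 CD73 KO and 3 WT libraries, in chromosome order, with the mean (line) and SD (bar) of each genotype. The groups do not overlap for Gimap9, Gimap6 and Gimap8, and they overlap for the other 5.

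Gimap9 had the largest difference in the family. Its role is less well described than those of the other members. Gimap9 (chromosome 6, 48676129 to 48679114) was at 73.2, 94.7 and 87.8 CPM in CD73 KO, against 57.7, 62.8 and 70.8 CPM in WT. Every CD73 KO library was above every WT library, but the nearest libraries, CD73 KO replicate 1 and WT replicate 3, were at 73.2 and 70.8 CPM. The means were 85.2 ± 11.0 CPM in CD73 KO, against 63.8 ± 6.58 CPM in WT (SD, n = 3 each). The log2 fold change was 0.42 ± 0.13 (SE, 95% interval 0.13 to 0.71) and did not pass over all genes (edgeR, adjusted p = 0.368). It ran from 0.34 without CD73 KO replicate 2 to 0.51 without CD73 KO replicate 1, and was 0.40 without the library labelled WT replicate 2.

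Gimap6 encodes the member known to bind the ATG8 protein GABARAPL2 and to take part in autophagy. Gimap6 (48701582 to 48708225) was at 350, 371 and 349 CPM in CD73 KO, against 287, 296 and 303 CPM in WT. It was the tightest of the members within each genotype, and the groups were separate by more than the width of either. The means were 356 ± 12.5 CPM in CD73 KO, against 296 ± 7.96 CPM in WT (SD, n = 3 each), a log2 fold change of 0.27 ± 0.09 (SE, 95% interval 0.07 to 0.48) that did not pass (edgeR, adjusted p = 0.405). Leaving out single libraries gave 0.24 to 0.29.

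Gimap8 (48647234 to 48660875) was at 125, 142 and 125 CPM in CD73 KO, against 121, 121 and 106 CPM in WT. The groups did not overlap, but the gap between them was smaller than the spread within either. Its log2 fold change was 0.17 ± 0.11 (SE, edgeR, adjusted p = 0.639), and 0.11 to 0.20 with single libraries left out. Gimap9, Gimap6 and Gimap8 were thus the 3 of 8 members whose genotypes did not overlap, all on the higher side, where 15.2% of all tested genes did not overlap, 7.59% higher and 7.6% lower.

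Gimap4, a soluble member known in mice to quicken the death of T cells once it has begun, was the most abundant in counts. It (48684549 to 48692060) was at 875, 826 and 744 CPM in CD73 KO, against 821, 840 and 673 CPM in WT. The lowest value of each genotype was in its replicate 3, and the groups overlapped almost fully. Its log2 fold change of 0.07 ± 0.12 (SE, 95% interval -0.19 to 0.32; edgeR, adjusted p = 0.876) was the smallest of the family, and it turned to -0.029 without WT replicate 3.

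Gimap3 and Gimap5 are the close pair whose reads can be exchanged; both bear a membrane anchor, and in mice the loss of both costs more T cells than the loss of Gimap5. Gimap5 (48746197 to 48754210) was at 78.5, 67.5 and 83.5 CPM in CD73 KO, against 75.0, 74.3 and 62.2 CPM in WT. Gimap3 (48764464 to 48770851) was at 377, 321 and 320 CPM in CD73 KO, against 332, 318 and 273 CPM in WT. In both the genotypes overlapped, and WT replicate 3 was the lowest library. The log2 fold changes were 0.11 ± 0.12 for Gimap5 and 0.14 ± 0.11 for Gimap3 (SE; edgeR, adjusted p = 0.789 and 0.708). With single libraries left out they ran from 0.033 to 0.20 for Gimap5 and from 0.052 to 0.20 for Gimap3. With their counts summed, which removes any exchange between them, it was 0.14 ± 0.11 (SE; edgeR, adjusted p = 0.710).

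Gimap7, whose protein in humans forms dimers on GTP, and Gimap1 varied most within a genotype. Gimap7 (48718621 to 48724636) was at 163, 152 and 142 CPM in CD73 KO, against 109, 161 and 128 CPM in WT. The library labelled WT replicate 2 was level with the highest CD73 KO library, and the other WT libraries were below all of CD73 KO. The log2 fold change was 0.20 ± 0.14 (SE; edgeR, adjusted p = 0.673) and was 0.35 without that library, but 0.070 without WT replicate 1. Gimap1 (48739054 to 48743795) was at 67.8, 82.1 and 108 CPM in CD73 KO, against 75.2, 80.6 and 84.0 CPM in WT. Both its lowest and its highest value were in CD73 KO. Its log2 fold change of 0.10 ± 0.16 (SE; edgeR, adjusted p = 0.856) turned to -0.093 without CD73 KO replicate 3. Gimap1os, the transcript opposite to Gimap1, was at 15.96, 22.9 and 19.6 CPM in CD73 KO, against 16.3, 17.4 and 14.1 CPM in WT, a log2 fold change of 0.29 ± 0.18 (SE; edgeR, adjusted p = 0.624). Gimap1 and Gimap1os together gave 0.14 ± 0.15.

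Although no member passed, the intervals bound the difference. Over the 8 members the 95% intervals of the fold change, CD73 KO over WT, reached from 0.844 (lower end, Gimap1) to 1.63 (upper end, Gimap9), and a 2-fold difference lay outside each of them. Smaller differences lay inside the intervals. In bulk RNA a smaller share of cells that express a gene and less RNA per cell cannot be told apart.

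**Figure D2:**
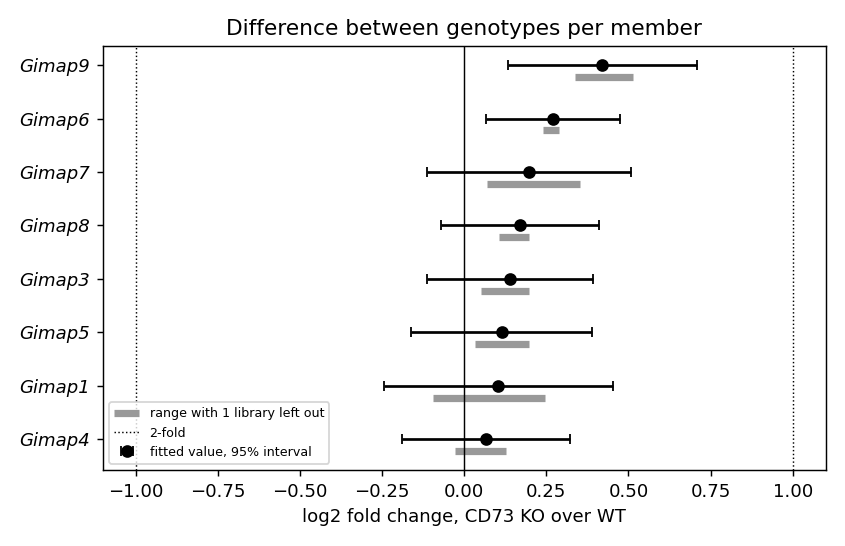
Log2 fold change of each GIMAP gene, CD73 KO over WT, with its 95% interval (points and bars), and the range of the values when 1 library is left out (grey). All 8 points lie between 0.07 and 0.42, 6 of 8 intervals include 0, and the dotted lines mark a 2-fold difference.

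Per length the family spanned a wide range, in the same order in nearly every library. Levels were taken as CPM per kb of merged exons and averaged over all 6 libraries. Gimap4 led at 434 ± 40.3 CPM per kb (SD, n = 6), above 99.2% of 12222 tested genes with an exon length. Gimap3 followed at 126 ± 12.9 and Gimap6 at 93.2 ± 9.91. Gimap7 was at 61.3 ± 8.89 CPM per kb, Gimap9 at 45.4 ± 8.69 and Gimap8 at 33.3 ± 3.09. Gimap1 and Gimap5 closed the order at 27.0 ± 4.44 and 17.7 ± 1.83, and even Gimap5 was above 73.1% of genes. The ranges over the 6 libraries were separate between Gimap4 and Gimap3, between Gimap6 and Gimap7 and between Gimap1 and Gimap5. They overlapped in the other 4 neighbouring pairs. Within a library, each gene was nonetheless above the next in 6 of 6 libraries, except that Gimap8 was above Gimap1 in 5 of 6; in CD73 KO replicate 3 Gimap1 was at 35.2 and Gimap8 at 33.8 CPM per kb. These levels rest on GENCODE exon lengths, and the annotation behind the counts is not known.

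Taken as a pool, the family made up 0.204%, 0.209% and 0.199% of all counts in CD73 KO, against 0.185%, 0.193% and 0.172% in WT. On the scaled level the sum was 2108, 2055 and 1959 CPM in CD73 KO, against 1879, 1954 and 1701 CPM in WT. The groups were separate, by 1959 against 1954 CPM at the nearest libraries. Gimap4 took 39.9% ± 1.79 of it in CD73 KO and 42.1% ± 2.20 in WT (SD, n = 3 each), Gimap6 17.5% ± 0.784 in CD73 KO and 16.1% ± 1.51 in WT, and Gimap3 16.6% ± 1.15 in CD73 KO and 16.7% ± 0.881 in WT. Gimap9 took 4.19% ± 0.622 in CD73 KO and 3.48% ± 0.591 in WT. The shares of the genotypes overlapped for all 8 members.

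**Figure D3:**
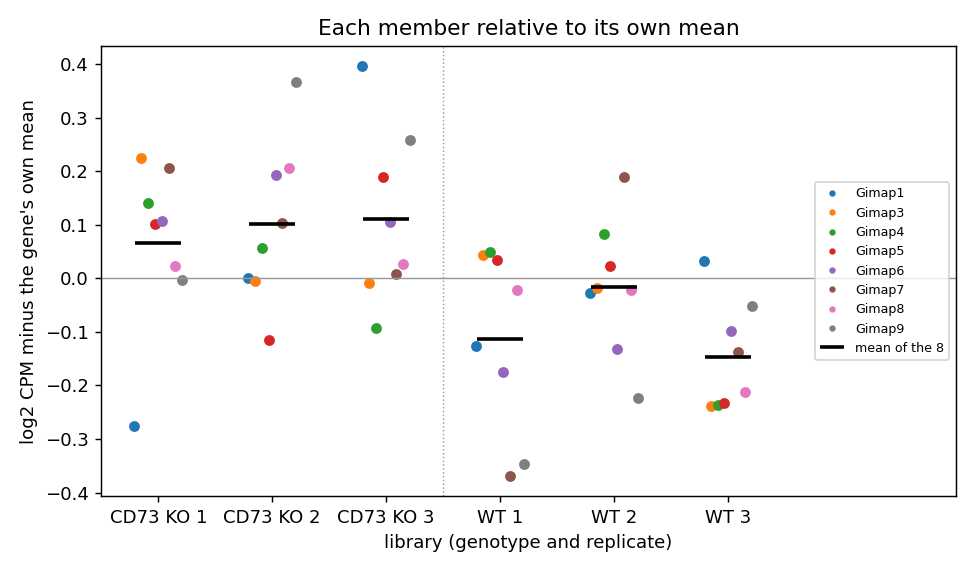
Log2 CPM of each GIMAP gene minus its own mean over the 6 libraries, by library, with the mean of the 8 genes (black bar). The black bars lie at 0.07, 0.10 and 0.11 in CD73 KO and at -0.11, -0.02 and -0.15 in WT, while single genes scatter around them by up to several times that distance.

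The members did not move as 1 block across the libraries. With each gene centred on its own mean, the average of the 8 lay at 0.07, 0.10 and 0.11 in the CD73 KO libraries and at -0.11, -0.02 and -0.15 in the WT libraries (log2). In WT replicate 3, Gimap4, Gimap3, Gimap5 and Gimap8 were at -0.24 to -0.21 against their own means, while Gimap1 was at 0.03. In CD73 KO replicate 1, Gimap3 and Gimap7 were at 0.23 and 0.21, and Gimap1 was at -0.28. The SD of log2 CPM over the 6 libraries ran from 0.13 for Gimap8 to 0.27 for Gimap9. The median over the 3341 tested genes at least as abundant as the lowest member was 0.15. Gimap3, Gimap4, Gimap5, Gimap6 and Gimap8 were near it, at 0.13 to 0.15. That set was not matched to each member in abundance. Gimap7, Gimap1 and Gimap9 varied more, at 0.22, 0.22 and 0.27.

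The genes whose centred levels lay nearest to the average GIMAP profile, of 10813 compared, were Evl, Jaml, Inpp5e, Gatd1 and Tpp1. Their root mean square differences from it over the 6 libraries were 0.027, 0.027, 0.031, 0.032 and 0.044 on the log2 scale, against a median of 0.21 over all genes compared. Evl, an actin regulator of the ENA/VASP family, was at 346, 359 and 364 CPM in CD73 KO, against 317, 327 and 314 CPM in WT. Jaml, an adhesion molecule of leukocytes, was at 154, 165 and 157 CPM in CD73 KO, against 141, 147 and 136 CPM in WT. The members themselves lay at 0.071 (Gimap6) to 0.20 (Gimap1) from their own average, all under the median of 0.21 over all genes compared. The difference is not scaled by the spread of a gene, so it is also small for a gene that hardly varies. A value under that median therefore does not show that a member follows the average. The genes named above were picked as the nearest of 10813, and the members were not picked by nearness. The larger values of the members therefore do not show that they follow the average less well than other genes. The members also make up that average, which by itself brings it nearer to them. With 6 libraries from 2 genotypes, nearness describes these libraries only.

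The neighbourhood of the cluster was read next. Within 500 kb of it, 17 of 52 other annotated genes were tested, 3 inside the cluster and 14 outside, and edgeR and limma-voom each called 0. DESeq2, run without the filter on low counts, covered 25 of them and also called 0. At an unadjusted p under 0.05 edgeR gave 1 of 17, against 9.64% of all tested genes. This was 4833403J16Rik, a long non-coding RNA gene between Gimap5 and Gimap3. It was at 9.04, 12.1 and 11.6 CPM in CD73 KO, against 7.62, 7.35 and 4.84 CPM in WT, without overlap. Its log2 fold change of 0.71 ± 0.23 (SE; edgeR, adjusted p = 0.379) was larger than that of any GIMAP gene, at a far lower level. The count at an unadjusted p under 0.05 was 6 of 18 without CD73 KO replicate 1, where 1027 of all 12223 tested genes had such a p. It was 5 of 19 without WT replicate 3, where 1455 of all 12576 did. Both runs again called 0 of the neighbouring genes.

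Against 52.3% of all tested genes, 10 of 14 outside the cluster were on the higher side, with a median log2 fold change of 0.11. On the Gimap8 side these were Krba1 (0.50 ± 0.24), Zfp467 (0.99 ± 0.60), Zfp862-ps, Gm10243, Lrrc61, Repin1, Zfp775 and AI854703 (0.16 ± 0.24), with Gm7887 lower (-0.13 ± 0.17). Krba1 did not overlap between the genotypes, nor did 15.2% of all tested genes. On the Gimap3 side Tmem176b (0.08 ± 0.44) and Malsu1 were near 0, and Gpnmb, Igf2bp3 (-0.33 ± 0.17, without overlap) and Tra2a lay below 0. None of these genes reached 200 CPM, and most were under 30 CPM. Tra2a, the most abundant of them, had an SE of 0.11, within the range of the GIMAP genes (0.093 to 0.16), and Zfp467 had the largest, 0.60.

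**Figure D4:**
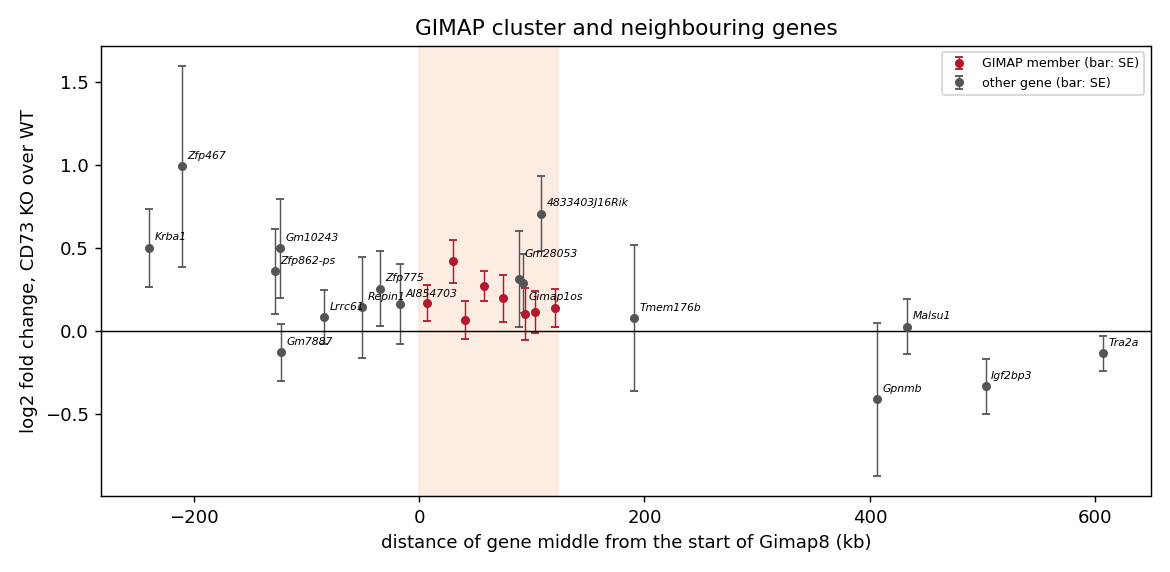
Log2 fold change, CD73 KO over WT, with its SE, of the 8 GIMAP genes (red) and the 17 other tested genes within 500 kb (grey), by distance from the start of Gimap8 in kb; the shaded band is the cluster of 124 kb. The GIMAP genes lie between 0.07 and 0.42 with short error bars, and no gene in the window passed the test.

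Promoter windows are shown for Gimap9 and Gimap6, the members with the largest differences, and for Gimap4, the most abundant member with the smallest. Each runs from 250 bases before to 50 after the RefSeq start (GRCm38.p6), written 5′ to 3′ on the strand of the gene. Capitals mark letters searched on both strands as CCGGAAG (ETS), TGTGGT (RUNX), CCACCC (KLF), CTTTGA (TCF/LEF), TGTTTAC (FOXO), or GAAA followed by any 2 bases and GAAA (the core of interferon response elements). The windows are chr6:48675885-48676184 (plus strand) for Gimap9, chr6:48708195-48708494 (minus strand) for Gimap6 and chr6:48684328-48684627 (plus strand) for Gimap4:
Gimap9: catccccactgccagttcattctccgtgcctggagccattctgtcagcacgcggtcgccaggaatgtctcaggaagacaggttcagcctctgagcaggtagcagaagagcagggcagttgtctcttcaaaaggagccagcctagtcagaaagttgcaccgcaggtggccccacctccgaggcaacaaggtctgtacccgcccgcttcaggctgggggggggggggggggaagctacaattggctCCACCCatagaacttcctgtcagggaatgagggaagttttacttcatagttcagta
Gimap6: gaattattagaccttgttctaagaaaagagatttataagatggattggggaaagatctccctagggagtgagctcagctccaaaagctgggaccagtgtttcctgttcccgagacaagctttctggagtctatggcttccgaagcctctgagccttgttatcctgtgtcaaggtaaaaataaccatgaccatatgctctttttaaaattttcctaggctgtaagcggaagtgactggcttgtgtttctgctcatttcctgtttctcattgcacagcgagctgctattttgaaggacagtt
Gimap4: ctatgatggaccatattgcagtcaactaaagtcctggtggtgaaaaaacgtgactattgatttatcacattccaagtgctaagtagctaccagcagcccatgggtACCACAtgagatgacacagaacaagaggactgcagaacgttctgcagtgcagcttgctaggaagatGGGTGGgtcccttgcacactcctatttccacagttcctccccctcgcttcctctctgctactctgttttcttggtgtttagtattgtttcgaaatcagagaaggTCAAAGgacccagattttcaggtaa
RefSeq held 9 windows for the 8 members, with 2 for Gimap8. The KLF letters were in 5 of the 9 windows (Gimap8, Gimap9, Gimap4, Gimap5 and Gimap3) and in 31.5% of 32851 promoter windows of the genome. The RUNX letters were in 3 of 9 (Gimap4, Gimap7 and Gimap1) against 16.8%, the TCF/LEF letters in 2 of 9 (Gimap4 and Gimap7) against 16%, and the FOXO letters in 1 of 9 (Gimap3) against 3.65%. The ETS letters and the interferon letters were in 0 of 9, against 8.86% and 3.44%. The E-box letters CANNTG, not marked above, were in 7 of 9 against 72.3%; in Gimap4 an E-box overlaps the RUNX match. The window of Gimap6 held none of the letters searched other than an E-box. A match is only a match of letters, and other forms of these sites were not searched, so a window without the letters may still hold a site.

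Genes that GIMAP proteins are known to work with, or that share their setting, were set beside them. The lists were chosen with earlier results of these data known, so their counts describe them and are no independent test. The BCL2 family controls the mitochondrial route of cell death and has been linked to GIMAP proteins in T cells. Of its 17 genes 15 were tested, 8 on the higher and 7 on the lower side (median log2 fold change 0.06), and edgeR called 0. At an unadjusted p under 0.05 there were 2 higher and 1 lower, against 5.75% and 3.89% of all tested genes. On the higher side lay 52.3% of all tested genes. The median was -0.090 without CD73 KO replicate 1, with 5 of 15 on the higher side, and -0.0059 without WT replicate 3. It reached 0.10 without CD73 KO replicate 2. Bmf, a death-promoting member, averaged 22.1 ± 0.619 CPM in CD73 KO, against 13.5 ± 3.53 CPM in WT (SD, n = 3 each; log2 fold change 0.70, edgeR adjusted p = 0.326), and Bcl2l11, which encodes BIM, averaged 179 ± 40.1 CPM in CD73 KO, against 118 ± 30.1 CPM in WT (0.59, edgeR adjusted p = 0.453). On the lower side were the pore-forming Bax (-0.52 ± 0.19) and the survival gene Bcl2l1 (-0.27 ± 0.15). The survival genes Bcl2 (0.12 ± 0.10) and Mcl1 (0.06 ± 0.13) had differences as small as those of the GIMAP genes.

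The ATG8 family and the autophagy machinery, which Gimap6 joins, showed the least. All 23 genes were tested, 14 on the higher and 9 on the lower side with a median of 0.03. EdgeR, DESeq2 and limma-voom called 0, and 0 had an unadjusted p under 0.05, against 9.64% of all tested genes. On the higher side lay 52.3% of all tested genes. The median ran from -0.040 without CD73 KO replicate 1 to 0.056 without CD73 KO replicate 2. Gabarapl2, the ATG8 gene whose protein GIMAP6 binds, had a log2 fold change of 0.02 (95% interval -0.24 to 0.29). The smallest p-values belonged to Atg12 (0.24 ± 0.13) and Rb1cc1 (0.24 ± 0.14) on the higher side and to Atg3 (-0.18 ± 0.11) and Atg5 (-0.13 ± 0.11) on the lower.

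Genes of quiescence and homing in naive T cells, a setting in which GIMAP genes are abundant, lay mostly on the higher side. Of 22 tested, 21 were on the higher side (median log2 fold change 0.44), and 8 had an unadjusted p under 0.05, all higher. Over all tested genes 52.3% were on the higher side, and 5.75% were higher at that p. EdgeR called 0. DESeq2, run without the filter on low counts, called 3, where it called 99 of 21315 genes in all. The median was 0.36 to 0.56 with single libraries left out. The smallest p-values were those of Btg2, an anti-proliferative gene, at 31.9 ± 2.63 CPM in CD73 KO, against 20.7 ± 3.27 CPM in WT (SD, n = 3 each; log2 fold change 0.63, edgeR adjusted p = 0.287), and of Dapl1 at 139 ± 19.8 CPM in CD73 KO, against 92.7 ± 15.1 CPM in WT (0.59, edgeR adjusted p = 0.287). The gene on the lower side was Tob2 (0.00 ± 0.12, just under 0). The GIMAP median of 0.16 stood below that of this list; a difference between the lists was not tested.

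The interferon-inducible GTPases, another family of immune GTPases, are the guanylate-binding and immunity-related GTPases and the Mx proteins. All 18 tested were on the higher side, their median log2 fold change was 0.76, and 11 had an unadjusted p under 0.05, against the same 52.3% and 5.75% of all tested genes. Both this list and the quiescence list were chosen with earlier results of these data known. EdgeR called 0, and DESeq2 without the filter on low counts called 6 (of its 99 among 21315 genes). The median was 0.56 without CD73 KO replicate 1 and also 0.56 without WT replicate 1, where 17 of 18 were on the higher side. Ifi47 averaged 159 ± 8.80 CPM in CD73 KO, against 107 ± 6.95 CPM in WT (SD, n = 3 each; log2 fold change 0.57, edgeR adjusted p = 0.138). Tgtp1, whose reads can be exchanged with its near-identical copy Tgtp2, averaged 16.2 ± 2.36 CPM in CD73 KO, against 7.82 ± 1.22 CPM in WT (1.07, edgeR adjusted p = 0.138). In level the GIMAP genes were the more abundant family, at a summed 1959 to 2108 CPM in CD73 KO, against 1701 to 1954 CPM in WT; the interferon-inducible GTPases summed to 1113 to 1426 CPM in CD73 KO, against 743 to 955 CPM in WT. These sums are not per length.

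**Figure D5:**
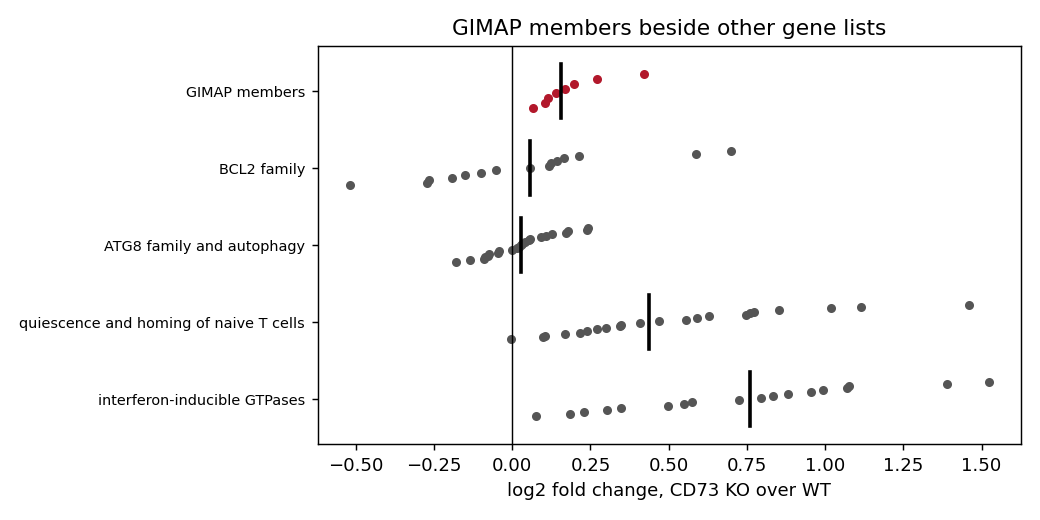
Log2 fold change, CD73 KO over WT, of each tested gene in the GIMAP family (red) and in 4 other lists (grey), with the median of each list (black bar). The medians are 0.16 for the GIMAP genes, 0.06 for the BCL2 family, 0.03 for autophagy, 0.44 for quiescence and homing genes and 0.76 for interferon-inducible GTPases.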

How the data were processed

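RNA-seq of 6 OT-I CD8 T cell libraries was used, 3 of CD73 KO and 3 of WT. The authors deposited raw counts per Ensembl gene identifier. Per the submitters' processing notes, fastp, HISAT2 and featureCounts were used with mm10; their versions, strand setting and annotation are not given in the sources. A symbol was found for 49326 of 49671 identifiers. Coordinates and exon lengths came from GENCODE M21 (GRCm38, the assembly that mm10 names), and promoter windows from RefSeq (GRCm38.p6).

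The filter filterByExpr kept 12242 genes; it sets a CPM cutoff from a minimum count of 10, to be reached in as many libraries as the smaller genotype has, and a minimum total of 15. EdgeR 4.0.16 served for the test in R 4.3.3 (TMM factors, quasi-likelihood F-test, robust dispersions, the legacy fit), with Benjamini-Hochberg adjustment over all tested genes and a threshold of 0.05. The standard error is the log2 fold change divided by the square root of F, and intervals are 95% intervals from the same fit. CPM were scaled with TMM factors. Alternatives tried were 1 CPM in at least 3 libraries or no minimum as the filter, library size alone, RLE factors, the newer edgeR fit, non-robust dispersions, a replicate block, DESeq2 1.42.0, voom of limma 3.58.1, each library left out, and windows of 250 and 1000 kb around the GIMAP cluster. DESeq2 was run without the filter on low counts, so it differs from the main run in both. Sums of rows that can share reads were chosen after seeing the data. Simulated counts were used to test the code.

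The members and lists were chosen with earlier results of these data known. Named genes were the members, Nt5e, Gimap1os, tested genes within 500 kb of the cluster, the 5 genes of nearest pattern, and in each list the 2 genes of smallest p in each direction. Bcl2, Mcl1, Gabarapl2 and the list genes given by counts of other cell types were named outside that rule, after their values were seen. Within a genotype, pairs of replicates differed by 6.83 to 32.7 times the sampling noise (chi-square per degree of freedom), so none was treated as a repeat deposit.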

Additional observations from a re-analysis of the deposited data

How the results depend on the processing

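Over 122 alternative fits of single members, 120 kept the direction and the side of the threshold, and 0 called a member. The exceptions came from leaving out single libraries: Gimap1 log2 fold change ran from -0.093 (without CD73 KO replicate 3) to 0.24, and Gimap4 log2 fold change from -0.029 (without WT replicate 3) to 0.13. Members called stayed at 0 in every alternative run, as did neighbouring genes called, also with windows of 250 and 1000 kb. The lowest adjusted p of a member was 0.0898, for Gimap9 without a filter on low counts; its adjusted p ran up to 0.999.

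Counts over all genes moved more. Against 7 genes, edgeR without a filter called 298, and DESeq2, also run without it, called 99. Leaving out single libraries gave 4 to 8. Without a filter edgeR called 3 of 16 BCL2 family genes, 7 of 22 quiescence genes and 9 of 18 interferon-inducible GTPases, against 298 of all 21315 genes. DESeq2 called 0, 3 and 6 of the same lists, against 99 of 21315. The lists were chosen with earlier results of these data known, so these counts are no independent test. The log2 fold change of Nt5e ran from -2.14 to -1.06 with single libraries left out. Deviations from the genotype mean correlated at 0.15, -0.17 and 0.01 between same-numbered libraries. Over the other pairs the correlations ran from -0.32 (CD73 KO replicate 1 with WT replicate 3) to 0.36 (CD73 KO replicate 2 with WT replicate 3). So few libraries cannot settle whether the replicate numbers pair the samples. With the replicate block, 5 genes and 0 members were called. With 3 libraries a genotype, depth limits low genes of the neighbourhood more than the members, which had 437 counts or more in every library.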
